A study of Mus musculus with 4 samples.

Results

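Lymphatic endothelial nuclei, those of the lining cells of the vessels that drain fluid and immune cells from tissue, made up 139 of the 36760 barcodes in 4 single-nucleus RNA libraries of mouse fat. A nucleus was taken as a member if at least 2 of the lymphatic genes Prox1, Mmrn1, Reln and Flt4 had a UMI (a unique molecular identifier, which stands for 1 captured RNA molecule). Its quality limits were 300 detected genes at the least and a mitochondrial share of UMIs below 10%. The members were thus selected on their measured levels of these genes. Nuclei with 2 or more of the adipocyte genes Plin1, Plin4, Lipe and Cidec, or of the epithelial genes Epcam, Krt8, Krt18 and Cdh1, were left out. The members numbered 54 in the BAT surgery library, 20 in the BAT sham library, 60 in the BeAT surgery library and 5 in the BeAT sham library. BAT stands for brown and BeAT for beige adipose tissue, as labelled. Every group had a high-fat diet, and surgery (bariatric, by the title of the study) was set against a sham operation. The molecule is labelled nuclear RNA, although the protocol tells of tissue rinsed of vessels, minced and digested into cells whose viability was checked. Strain, age, genotype, the time after surgery and the number of animals behind a library do not stand in the labels. Each of the 4 groups is 1 library, so a difference between surgery and sham has no replicate check, and every interval below (95%) covers counting error only.

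Lymphatic endothelium arises from veins when the transcription factor PROX1 is switched on, and it is kept alive and made to sprout by VEGF-C acting on the receptor VEGFR3, the product of Flt4. Initial lymphatic capillaries carry the hyaluronan receptor LYVE1 and release the chemokine CCL21, which draws dendritic cells into the vessel, and collecting vessels downstream have valves and a muscle coat. Lymph nodes, which lie embedded in fat, hold lymphatic sinuses of their own, whose lining is known for scavenger receptors such as STAB2, MARCO and MSR1.

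The promoter windows of 3 genes on which the results turn are shown, because these genes set the class (Prox1), its chemokine output (Ccl21a) and the difference between libraries (Stab2) apart. Each runs 5′ to 3′ on the gene's own strand from 250 bases before to 50 bases after the start, from RefSeq on build GRCm38.p6. They lie at chr1:190170778-190171077 (minus strand) for Prox1, chr4:42773942-42774241 (minus strand) for Ccl21a and chr10:87007893-87008192 (minus strand) for Stab2. Capitals mark the letters AGGAAG or their reverse complement CTTCCT, an ETS family core.
Prox1: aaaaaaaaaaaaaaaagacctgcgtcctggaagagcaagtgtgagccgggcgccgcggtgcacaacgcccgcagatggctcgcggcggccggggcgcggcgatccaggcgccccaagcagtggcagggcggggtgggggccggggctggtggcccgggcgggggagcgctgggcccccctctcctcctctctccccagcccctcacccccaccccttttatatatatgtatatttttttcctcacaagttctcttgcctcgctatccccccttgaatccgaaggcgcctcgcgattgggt
Ccl21a: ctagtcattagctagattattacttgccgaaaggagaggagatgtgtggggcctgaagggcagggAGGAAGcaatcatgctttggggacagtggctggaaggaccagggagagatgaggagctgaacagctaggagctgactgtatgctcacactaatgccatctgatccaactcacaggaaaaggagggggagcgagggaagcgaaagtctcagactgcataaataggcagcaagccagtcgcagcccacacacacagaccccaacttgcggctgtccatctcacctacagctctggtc
Stab2: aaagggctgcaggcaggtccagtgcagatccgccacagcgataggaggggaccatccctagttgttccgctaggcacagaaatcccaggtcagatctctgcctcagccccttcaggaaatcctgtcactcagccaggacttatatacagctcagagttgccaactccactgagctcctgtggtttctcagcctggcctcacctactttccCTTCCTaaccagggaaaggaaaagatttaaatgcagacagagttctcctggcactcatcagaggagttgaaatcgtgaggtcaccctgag
A set of 4 short motifs of endothelial factor families was searched on both strands in windows of the same length. The ETS core was in 36.1% of the 122 windows found for the 150 genes higher in lymphatic nuclei, against 33.4% of the 5489 windows of all genes tested and 35.1% of all 27025 promoters. The SOX letters AACAAT (or ATTGTT) were in 7.38% of the windows of genes higher in lymphatic nuclei, 5.72% of those of tested genes and 10.9% of all. The GATA letters AGATAA (or TTATCT) were in 4.10%, 5.70% and 11.4% of the same 3 sets, and the forkhead letters TGTTTAC (or GTAAACA) in 4.10%, 2.61% and 3.55%. The windows of Ccl21a and Stab2 held 1 ETS core each and the one shown for Prox1 held none of the 4 motifs, which describes these letters only. For Prox1 2 windows are listed, of which only the one shown was searched.

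The libraries held 9946 (BAT surgery), 10445 (BAT sham), 5952 (BeAT surgery) and 10417 (BeAT sham) barcodes and between 23118695 and 60409801 UMIs. Ucp1, which encodes the heat-producing protein that defines brown and beige fat cells, had 28, 3, 1 and 6 UMIs among all nuclei that passed in the same order. Cidea and Cox8b, also known from brown fat, had 31 and 17 UMIs in BAT surgery, 1003 and 386 in BAT sham, 218 and 87 in BeAT surgery and 1806 and 740 in BeAT sham. Ucp1 was thus near 0 in every library, and Cidea and Cox8b were low in BAT surgery. Adipoq and Plin1, known from fat cells in general, were low there too, with 2240 and 4355 UMIs against 22460 and 49058 in BAT sham. They had 2015 and 6836 UMIs in BeAT surgery and 26760 and 40730 in BeAT sham. The BAT surgery library carried RNA of genes known from the epididymis and the BeAT surgery library RNA of genes known from B and T cells, in the lymphatic nuclei as well. Levels are given as CPM, a gene's UMIs scaled to a common total over all genes of the class and library. The 9 epididymal genes looked up summed to 7271 CPM in the lymphatic nuclei of BAT surgery, against 17.5 in those of BAT sham, and all 9 were detected in BAT surgery. The sum was higher still, at 13937 CPM, in all other nuclei of BAT surgery. The 6 B cell and 7 T or NK cell genes summed to 1717 and 992 CPM in the lymphatic nuclei of BeAT surgery, against 0 for both in those of BeAT sham. In BeAT surgery every gene of both lists had at least 1 UMI there. In the lymphatic nuclei of BAT surgery 2 of the 7 T or NK genes had UMIs, at 167 CPM against 0 in BAT sham, and 1 of the 6 B cell genes (Ighm), at 74.1 CPM against 211 in BAT sham. In the other nuclei the T or NK sum was 419 CPM in BAT surgery and 86.9 in BAT sham. Genes that the other nuclei of a surgery library held at 10 times their level in the matching sham library or more, at 20 CPM or more, and above the lymphatic nuclei of the library, took 4.85% of lymphatic UMIs in BAT surgery (552 genes) and 2.91% in BeAT surgery (310 genes). How far such RNA enters the results below was not tested beyond the alternatives given. Barcodes shared with another library were 2 among the members and 623 in all.

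Lymphatic endothelial nuclei were a larger part of the surgery libraries. They were 0.543% of the 9942 nuclei passing the quality limits in BAT surgery (interval 0.408 to 0.708), against 0.192% of 10416 in BAT sham (0.117 to 0.296), a ratio of 2.83 (1.67 to 4.99). In the beige label they were 1.01% of 5949 nuclei in BeAT surgery (0.771 to 1.30), against 0.0482% of 10383 in BeAT sham (0.0156 to 0.112), a ratio of 20.9 (8.49 to 66.8). Set against endothelial nuclei only, that is lymphatic plus blood endothelial nuclei (at least 2 of Flt1, Cyyr1, Emcn and Ptprb, and fewer than 2 lymphatic genes), the shares were 17.3% in BAT surgery and 2.99% in BAT sham, 27.3% in BeAT surgery and 0.903% in BeAT sham. Of the 139 members 58 also held 2 or more of these 4 blood genes (20 in BAT surgery, 11 in BAT sham, 25 in BeAT surgery and 2 in BeAT sham) and were counted as lymphatic. Blood endothelial nuclei were fewer in both surgery libraries, at 259 in BAT surgery against 650 in BAT sham and 160 in BeAT surgery against 549 in BeAT sham. The brown ratio depended on whether nuclei with epididymal genes were kept. When nuclei with 2 or more genes of a macrophage, T or NK, B, progenitor or epididymal list were left out, 11 members in BAT surgery and 10 in BAT sham remained and the ratio was 1.15 (0.444 to 3.03). With the epididymal list not used for that removal, it was 4.51 (2.23 to 10.1), and the beige ratio was 20.4 (6.42 to 103.5) either way. Of the members of BAT surgery 42 of 54 held 2 or more epididymal genes, against 0 of 20 in BAT sham, so the removal by this list took nuclei from BAT surgery alone.

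**Figure D1:**
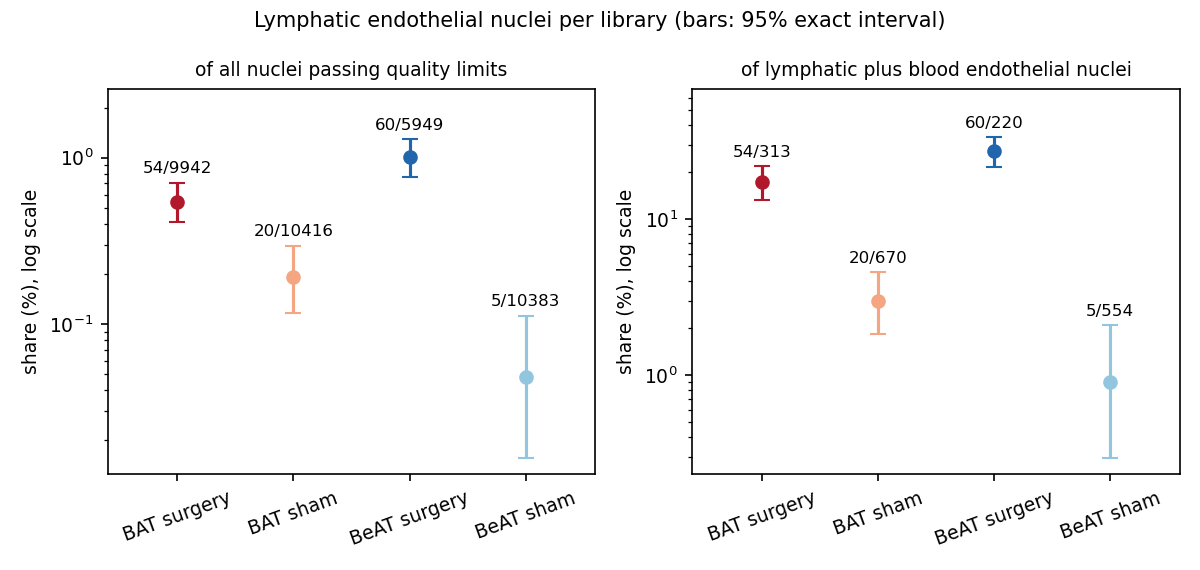
Share of lymphatic endothelial nuclei in each library, of all nuclei passing the quality limits (left) and of lymphatic plus blood endothelial nuclei (right), on a log scale. Points are libraries, bars the exact 95% interval for counting error, and the labels give nuclei over their base; BAT surgery at 54/9942 stands above BAT sham at 20/10416, and BeAT surgery at 60/5949 above BeAT sham at 5/10383.

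The members met the rule with different markers in each library. These values chose the nuclei and are a description. Reln, which encodes the secreted glycoprotein reelin, had 4241 and 3526 CPM in BAT surgery and BAT sham, and 831 and 412 in BeAT surgery and BeAT sham. It was found in all 54 members of BAT surgery, in 15 of 20 of BAT sham, in 37 of 60 of BeAT surgery and in 1 of 5 of BeAT sham. Mmrn1, the gene of the endothelial matrix protein multimerin, stood at 1593, 2158, 445 and 823 CPM in BAT surgery, BAT sham, BeAT surgery and BeAT sham. Prox1 was more even, with 1062, 1158, 748 and 1564 CPM in the same order, and was detected in 43 of 54, 17 of 20, 55 of 60 and 5 of 5 members. Flt4 had 599, 544, 280.3 and 494 CPM. All 4 genes were found in 48 members, 3 in 47 and exactly 2 in 44, while 700 nuclei with 1 gene fell just outside the rule. Of those in BAT surgery, 277 of 327 had Reln alone and 55 (16.8%) had a UMI of the endothelial genes Pecam1, Cdh5, Tie1, Tek, Egfl7, Sox18 or Erg. Just inside the rule, 4 of the 10 BAT surgery members with exactly 2 markers had one, against 23 of 24 in BeAT surgery. Over all members 131 of 139 had an endothelial gene, and 6 of the 8 without one came from BAT surgery. The adipocyte exclusion removed 24 nuclei with 2 or more markers and the epithelial exclusion 11, which were all in BAT surgery. Prox1 spans chr1:190118035-190170714, Mmrn1 chr6:60924976-60989378, Reln chr5:21884454-22344702 and Flt4 chr11:49609263-49652739 in GENCODE M21 on GRCm38 (mm10).

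Against blood endothelial nuclei of the same libraries, lymphatic nuclei carried a lymphatic programme well beyond the 4 genes of the rule. UMIs were summed per library and class and tested with edgeR's quasi-likelihood test, the library as a block, in the 3 libraries with at least 10 nuclei of both classes (BAT surgery, BAT sham and BeAT surgery). Of 6928 genes tested, 150 (2.17%) were higher in lymphatic nuclei and 230 (3.32%) lower at a Benjamini-Hochberg adjusted p under 0.05, with a median log2 fold change over all genes of -0.05. Without the BAT sham library, which held only 20 lymphatic nuclei, 39 were higher and 57 lower. Without BeAT surgery the counts were 275 higher and 377 lower, and without BAT surgery 149 and 257. The libraries differ in tissue label and operation, so the spread takes these in. The genes of both rules were left out of every count.

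Of 13 lymphatic markers outside the rule that could be tested, 9 were higher and none lower, at a median log2 fold change of 3.54. Without BAT sham 6 of these 9 were still called, and without either of the other libraries all 9 were. Ccl21a, the chemokine that guides dendritic cells through CCR7, had 1272, 2404 and 499 CPM in the lymphatic nuclei of BAT surgery, BAT sham and BeAT surgery, against 4.83, 1.34 and 9.28 in their blood endothelial nuclei. Every lymphatic value lay above every blood value, and edgeR gave a log2 fold change of 8.10 ± 0.79 (SE; adjusted p = 0.00266). Ccl21a (chr4:42772860-42773993) has near-identical copies, of which Ccl21b and Ccl21c were counted with 0 and 1 UMI in lymphatic nuclei, so its reads may be split between copies. Lyve1, the capillary hyaluronan receptor at chr7:110850607-110863239, had 475, 825 and 338 CPM in lymphatic nuclei and 7.25, 4.69 and 22.3 in blood nuclei of the same libraries. Its log2 fold change was 5.65 ± 0.63 (SE; edgeR, adjusted p = 0.00371). Sema3a, a repulsive guidance cue that shapes lymphatic valves in mice, stood at 815, 702 and 615 CPM in lymphatic nuclei and 4.83, 7.37 and 42.7 in blood nuclei. It differed by 5.61 ± 0.66 (log2, SE; edgeR, adjusted p = 0.00382), and lies at chr5:13125414-13602565. Its relative Sema3d differed by 4.37 ± 0.29 (adjusted p = 0.00224 by edgeR). Itga9, the integrin subunit needed for valve leaflets, differed by 2.54 ± 0.29 (edgeR, adjusted p = 0.00382). Fgl2, Pdpn (podoplanin, by which lymphatic vessels are told from blood vessels), Pkhd1l1 and Tbx1 were the other genes called higher. Piezo2 (log2 2.99), Thy1 (2.22), Nrp2 (0.78) and Gja1 (0.10) did not pass. Nrp2, the VEGF-C co-receptor, was at 1105, 1000 and 374 CPM in lymphatic nuclei and 445, 473 and 336 in blood nuclei.

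**Figure D2:**
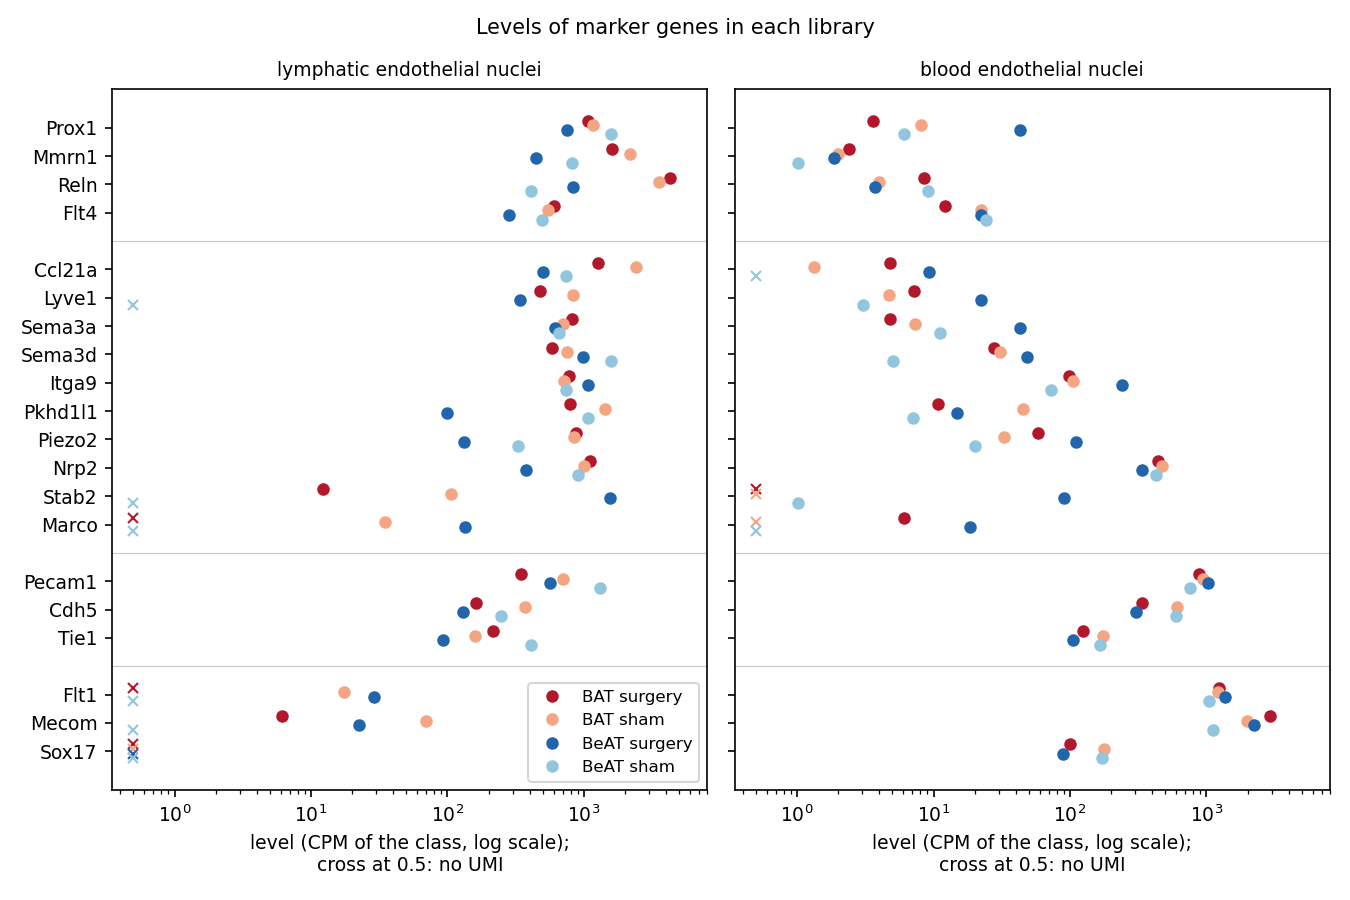
Level of marker genes in lymphatic (left) and blood (right) endothelial nuclei of each library, in CPM of the class on a log scale; a cross marks no UMI. Rows run from the 4 rule genes through other lymphatic and sinus genes to pan-endothelial and blood endothelial genes; Ccl21a stands at 1272 in lymphatic and 4.83 in blood nuclei of BAT surgery, and Stab2 at 12.3 in lymphatic nuclei of BAT surgery but 1549.8 in those of BeAT surgery.

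Among the 10 testable transcription factors tied to lymphatic fate, 3 were higher and none lower (median log2 0.14). Maf differed by 2.77 ± 0.30 (SE; edgeR, adjusted p = 0.00321), with 574, 667 and 364 CPM in lymphatic nuclei against 77.3, 71.7 and 68.6 in blood nuclei of BAT surgery, BAT sham and BeAT surgery. Nr2f2, the venous factor that binds PROX1, had 463, 614 and 280.3 CPM in lymphatic nuclei against 139, 76.4 and 106 in blood nuclei (log2 1.96 ± 0.36 SE; edgeR, adjusted p = 0.0202). Tbx1 was the third, and 1 of the 3 was still called without BAT sham. Sox18 (log2 -0.80), Gata2 (0.08), Nfatc1 (1.10) and Klf2 (-0.59) did not pass. Foxc2, the valve factor, had too few counts to be tested, with 1, 0 and 4 UMIs in lymphatic nuclei of the 3 libraries.

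Most tested capillary lymphatic genes were higher in lymphatic nuclei, but few of the collecting vessel and valve genes were. Of 8 tested capillary lymphatic genes 5 were higher (Ackr2, Ccl21a, Lyve1, Pdpn, Stab1) and 1 lower (Cd36), with a median log2 of 2.68, and 2 of the 5 were still called without BAT sham. Ackr2, a decoy receptor that removes inflammatory chemokines, differed by 4.64 ± 0.82 (SE; edgeR, adjusted p = 0.0174). Of 14 collecting vessel and valve genes 3 were higher (Celsr1, Foxp2, Itga9) and 1 lower (Fat4), with a median log2 of 0.19. Without BAT sham 2 of the 3 were still called, and Fat4 was lost without either BAT library. Foxp2, a transcription factor of collecting vessels in mice, had 951, 1035 and 818 CPM in lymphatic nuclei against 19.3, 40.2 and 79.8 in blood nuclei, a log2 fold change of 4.43 ± 0.46 (SE; edgeR, adjusted p = 0.00316). The lymphatic values of Foxp2 were close to each other and all above the blood values. In the axon guidance list of 16 tested genes, Ntn1, Sema3a, Sema3d and Unc5b were higher, and Nrp1, Robo4 and Slit3 lower, of which 2 and 1 were still called without BAT sham. Ntn1 (netrin 1) stood at 1951, 1298 and 180.4 CPM in lymphatic nuclei and 145, 83.1 and 44.5 in blood nuclei (log2 3.26 ± 0.42 SE; edgeR, adjusted p = 0.00541). Nrp1, the VEGF-A co-receptor, was at 18.5, 35.1 and 74.1 CPM in lymphatic nuclei and 836, 1300.0 and 949.8 in blood nuclei (log2 -4.54 ± 0.43 SE; edgeR, adjusted p = 0.00241).

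Of the 10 genes with the highest fold change that went the same way in all 3 libraries, 3 are list members named above (Ccl21a, Lyve1, Sema3a). The others were Apba2, D330037F02Rik, Tnfaip8l3, A830019P07Rik, Slc38a4, Pard6g and Sh3gl3. Apba2, an adaptor protein known from neurons, had 580.2, 491 and 77.3 CPM in lymphatic nuclei of BAT surgery, BAT sham and BeAT surgery, against 0, 1.34 and 1.86 in blood nuclei (log2 8.27 ± 0.69 SE; edgeR, adjusted p = 0.00224). Pard6g, a member of the cell polarity complex, had 1018, 1228 and 145 CPM in lymphatic nuclei against 6.04, 13.4 and 14.8 in blood nuclei (log2 5.82 ± 0.72 SE; edgeR, adjusted p = 0.00472). Both were several times lower in lymphatic nuclei of BeAT surgery than in those of the BAT libraries.

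On the other side, blood endothelial genes were low in lymphatic nuclei. Of 13 tested blood endothelial genes outside the rule 8 were lower and none higher (median log2 -2.40), and 3 of the 8 were still called without BAT sham. Sox17, a transcription factor of arteries at chr1:4490931-4497354, had 0 UMIs in lymphatic nuclei of all 4 libraries, against 100.3, 179, 89.0 and 173 CPM in blood nuclei. Over the 3 fitted libraries together it was at least 24.6-fold lower, with 3 UMIs in place of 0. Notch4 likewise had 0 UMIs in lymphatic nuclei and 71.3, 80.4 and 77.9 CPM in blood nuclei of the fitted libraries, at least 13.6-fold lower. The other genes with the lowest fold change were Abca8b, Adgrg1, Cytl1, Lrrc36, Gm29007, C1qtnf9, Col28a1 and Lhx6. Among 15 pan-endothelial genes 6 were lower (Adgrl4, Cd34, Eng, Esam, Mecom, Robo4), none higher and the median log2 was -1.09, and 2 of the 6 were still called without BAT sham. Mecom, which is listed here as pan-endothelial, had 6.17, 70.2 and 22.6 CPM in lymphatic nuclei and 2924, 1987 and 2226 in blood nuclei (log2 -6.66 ± 0.58 SE; edgeR, adjusted p = 0.00224). Pecam1 (log2 -0.96), Cdh5 (-1.09), Tie1 (0.12), Erg (-0.08) and Ets1 (0.22) did not pass. Tie1 changed sign without BAT surgery.

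Genes by which capillary endothelium takes up fat were also lower in lymphatic nuclei. Of 18 tested lipid handling genes 10 were lower and none higher (median log2 -1.96), and 4 of the 10 were still called without BAT sham, 10 without either other library. Cd36, the fatty acid transporter, had 18.5, 386 and 148 CPM in lymphatic nuclei of BAT surgery, BAT sham and BeAT surgery, against 1479, 3939 and 2250.2 in blood nuclei (log2 -4.29 ± 0.49 SE; edgeR, adjusted p = 0.00382). Scarb1, the HDL receptor, had 24.7, 17.5 and 38.7 CPM in lymphatic nuclei against 332, 332 and 352 in blood nuclei (log2 -3.58 ± 0.37 SE; edgeR, adjusted p = 0.00316). Fabp4, Fabp5, Gpihbp1 (which anchors lipoprotein lipase on capillaries), Lpl, Pparg, Plin2, Cav1 and Cavin1 completed the 10. Adipocytes hold several of these genes too, and the 8 adipocyte genes looked up summed to 870, 1211 and 1005 CPM in lymphatic nuclei against 925, 1493 and 1145 in blood nuclei of the same libraries. Abca1 (0.47) and Apoe (-0.18), of cholesterol export, did not pass.

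In the VEGF-C pathway 1 of 9 tested genes was lower and none higher. That gene was the ligand itself: Vegfc had 6.17, 0 and 6.44 CPM in lymphatic nuclei against 185, 338 and 74.2 in blood nuclei (log2 -4.63 ± 0.59 SE; edgeR, adjusted p = 0.00506). Of its receptors, Flt4 belongs to the rule, and Kdr, which encodes VEGFR2, had 444, 632 and 296 CPM in lymphatic nuclei against 210.2, 547 and 304 in blood nuclei (log2 0.34 ± 0.31 SE; edgeR, adjusted p = 0.736). The values of Kdr overlapped, and its sign turned without BAT surgery. Among 6 tested TIE and angiopoietin genes only Itga9 was called. Tek was at 290.1, 281 and 87.0 CPM in lymphatic nuclei and 441, 581 and 382 in blood nuclei (log2 -1.32; edgeR, adjusted p = 0.0801). Of 16 junction genes 2 were lower, Esam and Jam2, both adhesion molecules of tight junctions, and 1 was still called without BAT sham. Cldn5 (0.48), the main claudin of endothelium, did not pass. In the matrix list of 18, Lama4 and Itga9 were higher and Col4a2, Fbln2, Itga1 and Itga6 lower, of which 1 and 0 were still called without BAT sham. Lama4, a laminin chain of vessel basement membranes, had 1457, 1982 and 606 CPM in lymphatic nuclei and 292, 467 and 308 in blood nuclei (log2 1.73 ± 0.33 SE; edgeR, adjusted p = 0.0223). Of 14 Notch, BMP and TGF-beta genes 2 were higher (Smad1, Tgfbr2) and 3 lower (Bmper, Eng, Smad6). None of these 5 was still called without BAT sham, neither of the higher ones without BAT surgery, and 1 of the 3 lower ones without BeAT surgery. Leukocyte traffic genes gave 5 higher of 16 (Ackr2, Ccl21a, Lyve1, Stab1, Stab2) and 1 lower (Cxcl12), of which 3 and 0 were still called without BAT sham. Stab2, at a log2 fold change of 4.72, was the called gene among 4 tested of the node sinus list, and could not be fitted without BeAT surgery. The node ceiling list had 3 lower of 5 (Cav1, Cd36, Fbln2), and 1 without BAT sham. No gene of the MHC and interferon (10 tested), glucocorticoid and clock (14), immediate early and heat shock (9) or cell cycle (2) lists was called, against 2.17% and 3.32% of all genes, and 2 of 11 mitochondrially encoded genes were lower (mt-Cytb, mt-Nd1), both lost without either BAT library. Among markers of other cells, 4 of 8 progenitor genes (Col1a2, Col3a1, Lama2, Opcml) and 1 of 5 mural genes (Rgs5) were lower (1 and 0 of them without BAT sham), and no tested adipocyte, macrophage, T or NK, B, Schwann, node stroma or muscle gene was called.

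**Figure D3:**
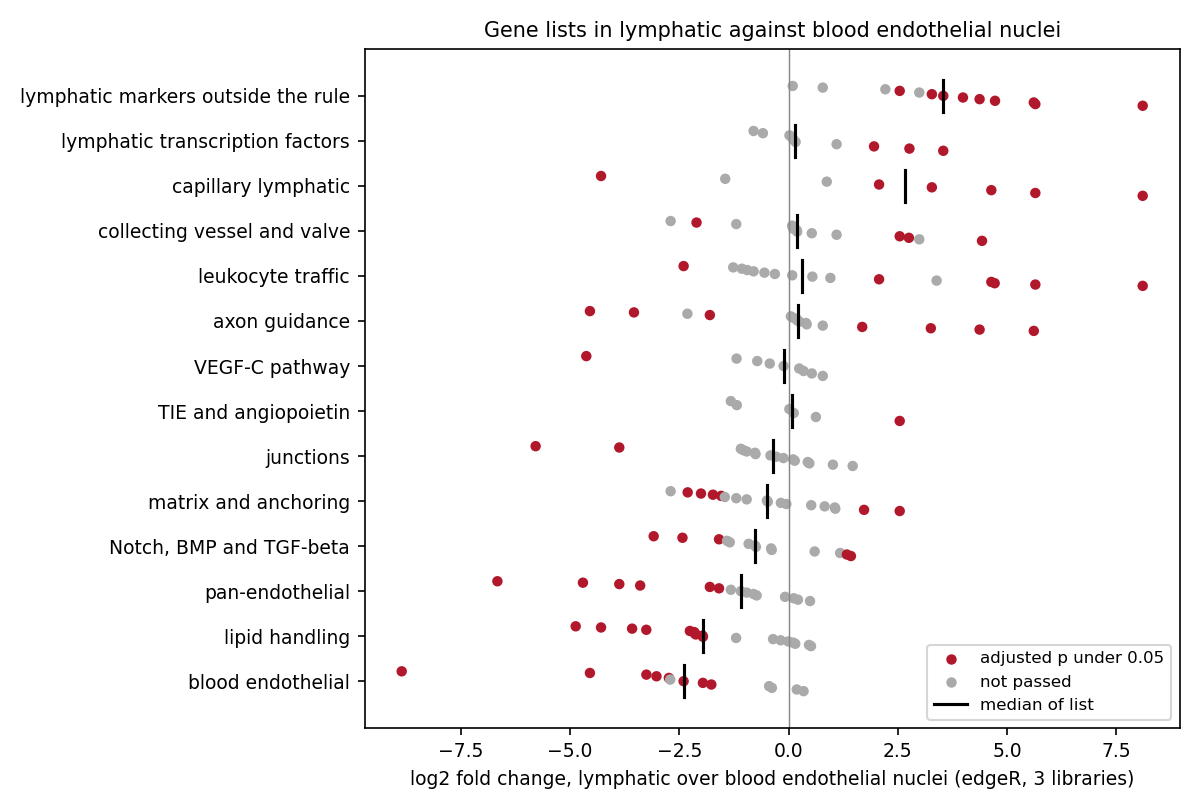
Log2 fold change of lymphatic over blood endothelial nuclei for the tested genes of 14 lists, the genes of the rules left out. Red points passed an adjusted p of 0.05 by edgeR in 3 libraries, grey points did not, and the black bar is the list median, from 3.54 for lymphatic markers down to -2.40 for blood endothelial genes.

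The lymphatic nuclei of BeAT surgery stood above those of the other libraries in Stab2, a gene known from lymph node sinuses. Stab2, a scavenger receptor for hyaluronan at chr10:86841198-87008025, had 481 UMIs (1549.8 CPM) in BeAT surgery, against 2 (12.3) in BAT surgery, 6 (105) in BAT sham and 0 in BeAT sham, where 3 UMIs would be 247 CPM. It was found in 40 of 60 members of BeAT surgery, 2 of 54 of BAT surgery, 2 of 20 of BAT sham and 0 of 5 of BeAT sham. No single nucleus held more than 54 of the 481 UMIs. In blood endothelial nuclei of BeAT surgery, at a median of 2378.5 UMIs against 3640 in the lymphatic ones, 6 of 160 (3.75%) had a Stab2 UMI. Marco, another scavenger receptor, was found in 18 of 60 members of BeAT surgery, 0 of 54 of BAT surgery and 1 of 20 of BAT sham, and 16 of the 18 also held Stab2. The macrophage list, to which Marco and Msr1 are close in function, summed to 277 CPM in the lymphatic nuclei of BeAT surgery against 92.6 in those of BAT surgery. It stood at 87.2 CPM in blood endothelial nuclei of BeAT surgery. Of its 7 genes 6 had a UMI in the lymphatic nuclei of BeAT surgery and 5 in those of BAT surgery. Its part in the values of Marco and Msr1 was not tested.

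BeAT surgery over BAT surgery was compared after these values had been seen, and as each is 1 library there is no test. A gene was called by size, with at least 20 UMIs over both libraries, a ratio of at least 2 and an interval outside 1. Of 4833 genes with enough UMIs 748 (15.5%) were higher in BeAT surgery and 575 (11.9%) lower. If the lymphatic nuclei also had to hold a gene at or above the level in all other nuclei of the library where it was higher, 453 (9.37%) were higher and 352 (7.28%) lower. With nuclei carrying genes of other classes left out, 198 were higher and 154 lower. A gene could reach 20 UMIs through 1 library alone, so counts within a list describe the genes measured and support nothing about the list. Of 14 genes of the node sinus list 6 were measured, that is had enough UMIs, of which Csf1, Marco, Msr1 and Stab2 were higher and Il7 lower. These 4 had at most 3 UMIs in BAT surgery and were measured only because BeAT surgery was high. Stab2 was 126-fold higher (34.6 to 1039.6). Csf1, the growth factor that keeps sinus macrophages, had 238 CPM in BeAT surgery and 18.5 in BAT surgery, 12.9-fold higher (4.24 to 63.9). Msr1 had 57 UMIs in BeAT surgery and 0 in BAT surgery, at least 9.92-fold higher. Robo1, a guidance receptor, had 499 CPM in BeAT surgery and 6.17 in BAT surgery. Its ratio was 80.9 (14.3 to 3216). The 8 genes farthest above 1 were Arhgap15, Bank1, Dock10, Dock2, Gm2682, Kcnq5, Pcdh15 and Stab2. They include genes known from lymphocytes, such as Bank1 and Dock2. With the lymphatic nuclei at or above the other nuclei, they were Stab2, Pcdh15, Robo1, Klhl29, Hs3st5, Enpp2, Nxph1 and Hdac9. Farthest below 1 by the same demand were Slc14a2, Adamtsl1, Lrrc9, Ptn, Defb39, Ntn1, 4930578G10Rik and Pcsk6.

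Markers of ordinary lymphatic vessels went the other way between the same libraries. Of 14 measured lymphatic markers outside the rule 6 were lower in BeAT surgery (Ccl21a, Fgl2, Nrp2, Pdpn, Piezo2, Pkhd1l1) and 1 higher (Nts), at a median log2 ratio of -0.71 against 0.06 over all genes. Pkhd1l1, a large membrane protein, had 99.9 CPM in BeAT surgery and 784 in BAT surgery, a ratio of 0.127 (0.0831 to 0.190). Piezo2, a stretch-gated channel, had 132 in BeAT surgery and 870.3 in BAT surgery, a ratio of 0.152 (0.104 to 0.216). Sema3d (ratio 1.66) and Itga9 (1.39) stayed under the 2-fold limit. Ccl21a had 499 CPM in BeAT surgery and 1272 in BAT surgery, a ratio of 0.393 (0.317 to 0.486), but 107 of its 155 UMIs in BeAT surgery lay in 1 nucleus. With nuclei carrying genes of other classes left out, the ratio of Ccl21a was 1.001, and with the epididymal list not used for the removal 0.882.

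Within the BeAT surgery library these genes fell on different nuclei. At least 2 of Mmrn1, Ccl21a, Pkhd1l1 and Piezo2 were found in 18 of its 60 members, Stab2 in 40, both in 3 and neither in 5. In BAT surgery the same 4 genes gave 45 of 54 members, in BAT sham 16 of 20 and in BeAT sham 3 of 5. Mmrn1 is 1 of the genes that chose the members, so this split rests in part on the rule. It was made after the values were seen and has no test. The 40 nuclei with Stab2 held 229726 UMIs in all and the 20 without 80641, with median UMIs of 3657 and 3511.5, and the deepest nucleus, at 50724 UMIs, was among those with Stab2. Pkhd1l1 had 0 CPM in nuclei with Stab2 and 384 in those without. Ccl21a stood at 8.71 with Stab2 and 1897 without. Leaving out the nucleus with most UMIs of the gene, the nuclei without Stab2 had 629 CPM of Ccl21a, 252 of Pkhd1l1 and 452 of Lyve1. Piezo2 stood at 8.71 with and 484 without. Reln, a gene of the rule, stood at 326 with Stab2 and 2269 without, and Mmrn1 at 157 with and 1265 without, whereas Prox1 (792 with, 620.0 without) and Sema3d (1019 with, 856 without) were close. Robo1 stood at 653 CPM in nuclei with Stab2 and 62.0 in those without, but its level without the nucleus with most of its UMIs was not computed. Lyve1 was present in both, at 205 with and 719 without. An endothelial gene was found in 39 of 40 nuclei with Stab2 and in 19 of 20 without. It was found in 119 of the 163 BeAT surgery nuclei with 1 marker as well, and as blood endothelium shares these genes they do not check the lymphatic label.

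**Figure D4:**
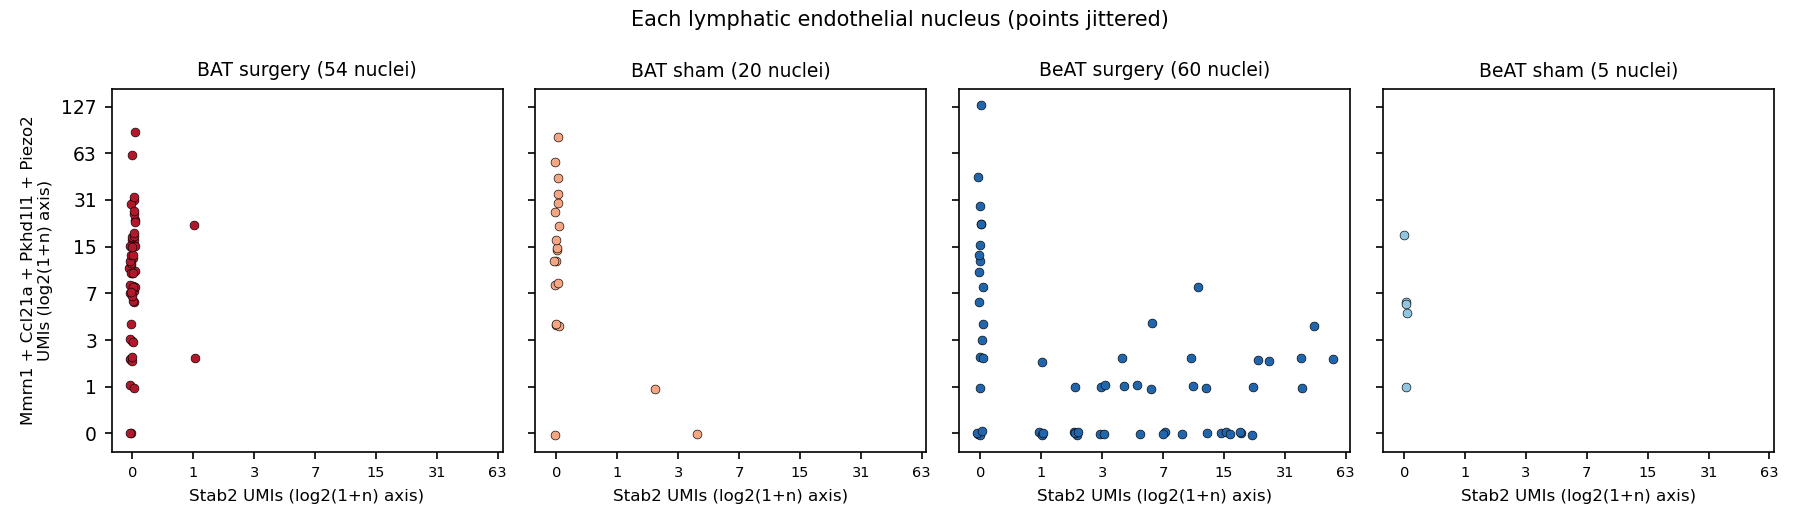
Each lymphatic endothelial nucleus by its Stab2 UMIs (x axis) and the summed UMIs of Mmrn1, Ccl21a, Pkhd1l1 and Piezo2 (y axis), both on a log2(1 + n) axis with points jittered, 1 panel a library. In BeAT surgery 40 of 60 nuclei hold Stab2 and lie low on the y axis, while in BAT surgery 52 of 54 have no Stab2.

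Many of the measured genes of immunity and stress also stood higher in the lymphatic nuclei of BeAT surgery than in those of BAT surgery. Of 15 MHC and interferon genes 11 were measured, of which 9 were higher and none lower, at a median log2 of 2.03. Over all measured genes 15.5% were higher, at a median log2 of 0.06. With the lymphatic nuclei at or above the other nuclei, 6 were higher, against 9.37% of all measured genes. In blood endothelial nuclei the same genes had a median of -0.12. B2m, the light chain of MHC class I, had 538 CPM in lymphatic nuclei of BeAT surgery and 98.8 in those of BAT surgery, a ratio of 5.45 (3.26 to 9.75). That ratio was 2.50 without the nucleus with most UMIs in each library, which held 16.3% of all lymphatic UMIs of BeAT surgery, and 1.09 with every nucleus thinned to 1000 UMIs. Cd74, the MHC class II chaperone, had 364 and 30.9 CPM in BeAT surgery and BAT surgery, a ratio of 11.8 (4.91 to 37.0), and of 1.43 with nuclei carrying genes of other classes left out. Cd74 was not above the other nuclei in BeAT surgery, which held 399.6 CPM. Of 12 immediate early and heat shock genes 8 were measured and all 8 were higher, such as Junb at 203 in BeAT surgery and 24.7 in BAT surgery (ratio 8.22, 3.06 to 31.1). In blood endothelial nuclei the median log2 of these 8 genes was 2.01, against 2.28 in lymphatic nuclei. These genes, too, could be measured through BeAT surgery alone. Both medians thus describe the genes measured and support nothing about the list. The 3 measured cell cycle genes (Kif11, Mki67, Top2a), 5 measured B cell genes and 4 T or NK genes were also higher, most of them measured through BeAT surgery alone. With the lymphatic nuclei at or above the other nuclei, 3 cell cycle genes, 0 B cell and 0 T or NK genes were higher. The 8 measured genes of the epididymal list were lower, and 0 of them by that stricter count. Defb39, a beta-defensin gene outside the list, was lower by the stricter count as well, so that demand did not remove every such gene. What part the B and T cell RNA has in the immune and cell cycle values was not tested.

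**Figure D5:**
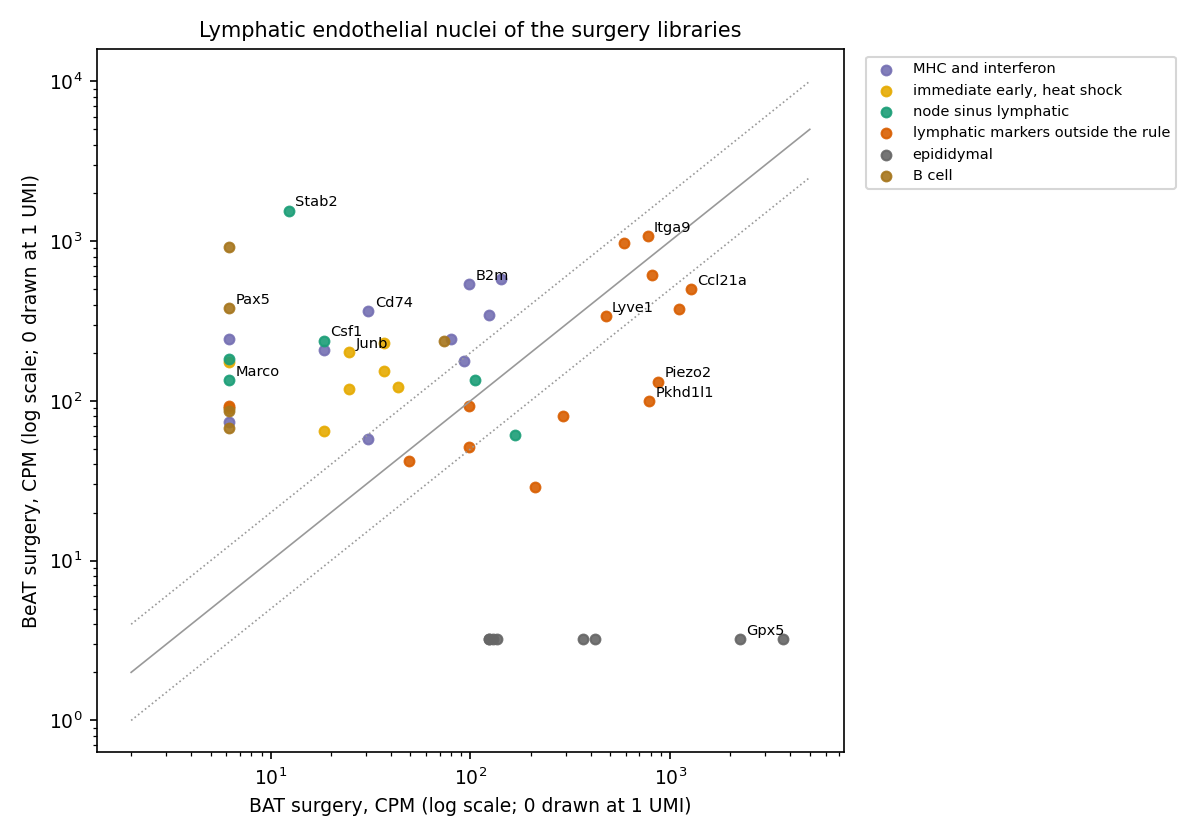
Level of the genes of 6 lists in lymphatic endothelial nuclei of BeAT surgery (y axis) against BAT surgery (x axis), in CPM on log scales, for genes with at least 20 UMIs over both. The solid line is equality and the dotted lines 2-fold; Stab2 (1549.8 in BeAT surgery, 12.3 in BAT surgery) lies far above and Pkhd1l1 (99.9 in BeAT surgery, 784 in BAT surgery) below.

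For surgery against sham, only the brown label had at least 20 members in both libraries. Of 2593 genes with enough UMIs 284 (11.0%) were higher in BAT surgery and 202 (7.79%) lower, by the same rule of size. The BAT surgery side rested on 162005 lymphatic UMIs and the BAT sham side on 57000. With median-of-ratios size factors, which moved the median log2 ratio of all genes to 0.35 where it was 0.13 on class totals, 385 were higher and 139 lower. The 8 genes farthest above 1 (Frmpd4, Gpx5, Adam7, Gm1110, Slc16a10, Cnksr2, Lcn5, Ap1s2) include epididymal genes. All 8 measured genes of the epididymal list were among the higher ones. Where the lymphatic nuclei also had to reach the other nuclei, 102 (3.93%) were higher and 180 (6.94%) lower. Farthest above 1 were then Klhl3, Lmcd1, Lrrc9, Slc14a2, Pemt, Lrig2, Agpat3 and Fgf13. Lmcd1 had 30 UMIs in BAT surgery (185 CPM) and 0 in BAT sham, at least 3.52-fold higher, and only 4.18 CPM in the other nuclei of BAT surgery. Farthest below were Nckap5, Egfem1, B2m, Tm4sf1, Apoe, Ccn1, H2-D1 and Gucy1a2. The genes farthest below 1 without that demand were Nckap5, Fabp4, Egfem1, Scd1, Cd36, Cfd, B2m and Car3, among them adipocyte genes. With nuclei carrying genes of other classes left out, 67 genes were higher and 28 lower.

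None of 11 measured lymphatic markers outside the rule was called in either direction between BAT surgery and BAT sham, which for a list of this size is near the 11.0% and 7.79% of all genes. Their median log2 ratio was -0.23. Sema3a had 815 CPM in BAT surgery and 702 in BAT sham, a ratio of 1.16 (0.810 to 1.70). Nrp2 was at 1105 in BAT surgery and 1000 in BAT sham, a ratio of 1.10 (0.816 to 1.52). Ccl21a, at 1272 in BAT surgery and 2404 in BAT sham, had a ratio of 0.529 (0.424 to 0.662), short of the 2-fold limit. The same held for Lyve1 (0.576, 0.396 to 0.847) and Pkhd1l1 (0.552, 0.414 to 0.738), and the intervals of these 3 lay below 1. Of the Ccl21a UMIs, however, 68 of 137 in BAT sham and 59 of 206 in BAT surgery lay in 1 nucleus. Among the members without Stab2, leaving out that nucleus, Ccl21a stood at 919 CPM in BAT surgery and 1382 in BAT sham.

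Most of the lipid handling and antigen presentation genes that could be measured were lower in BAT surgery, against 7.79% of all measured genes. Here too a gene could reach 20 UMIs through 1 library alone. The counts below thus describe the genes measured and support nothing about the lists. Of 20 lipid handling genes 7 were measured and 6 of them lower (Apoe, Cav1, Cd36, Fabp4, Lpl, Pparg), at a median log2 of -2.58, and 1 was lower when a gene counted only where the lymphatic nuclei of BAT sham held it at or above the level in the other nuclei of BAT sham. Fabp4 had 136 CPM in BAT surgery and 2123 in BAT sham. In blood endothelial nuclei it had 2329 CPM in BAT surgery and 11244 in BAT sham, and in all nuclei that were not lymphatic 263 in BAT surgery and 5361 in BAT sham. The 8 adipocyte genes summed to 3805 CPM in other nuclei of BAT surgery and 13498 in those of BAT sham, and the part of this difference in the lipid values was not tested. Of 15 MHC and interferon genes 5 were measured and 4 of them lower (B2m, Cd74, H2-D1, H2-K1), and 3 by that stricter count. B2m had 98.8 CPM in BAT surgery (16 UMIs) and 877 in BAT sham (50 UMIs), a ratio of 0.113 (0.0598 to 0.201). The same ratio in blood endothelial nuclei was 0.523 (0.465 to 0.588). Pan-endothelial genes had 4 lower of 10, namely Cdh5, Ecscr, Egfl7 and Pecam1. Pecam1 had 346 in BAT surgery and 702 in BAT sham, a ratio of 0.493 (0.322 to 0.759). In BAT surgery it had 64.9 CPM in the 10 members with exactly 2 markers, which held 46191 UMIs, and 458 in the 44 with more. Of those 10 members 4 had an endothelial gene, against 6 of 6 such members in BAT sham. The part of these members in the pan-endothelial values was not tested. Among 7 glucocorticoid and clock genes Fkbp5, a gene induced by glucocorticoids, was higher, at 815 in BAT surgery and 140.4 in BAT sham, a ratio of 5.81 (2.86 to 13.7). It was higher in blood endothelial nuclei too, with a ratio of 5.02 (4.07 to 6.21), and the other nuclei of BAT surgery held 891 CPM, above the lymphatic ones. Jun was lower (0.141, 0.0447 to 0.384), but its ratio was 1.88 with nuclei carrying genes of other classes left out. Of 7 mitochondrially encoded genes 4 were lower (mt-Atp6, mt-Co1, mt-Co3, mt-Cytb). The median mitochondrial share of a lymphatic nucleus was 0.114% in BAT surgery and 0.248% in BAT sham.

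In the beige label the 5 nuclei of BeAT sham held 12145 UMIs in all, so levels are given side by side. Prox1 had 748 CPM in BeAT surgery and 1564 in BeAT sham (19 UMIs). Pkhd1l1 had 99.9 in BeAT surgery and 1070.4 in BeAT sham (13 UMIs), and Ccl21a 499 in BeAT surgery and 741 in BeAT sham (9 UMIs). Lyve1, with 338 in BeAT surgery, had no UMI in BeAT sham. For Stab2 the 0 UMIs of BeAT sham left BeAT surgery at least 6.27-fold higher. In the BeAT sham nuclei 1 UMI is 82.3 CPM, and a count of 0 allows a level of up to 247 CPM.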

How the data were processed

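Single-nucleus RNA libraries of 4 adipose tissue samples (BAT surgery, BAT sham, BeAT surgery, BeAT sham; 1 each) were read as UMI counts per gene and barcode, raw and not normalized, as deposited by the authors. Libraries followed a SeekGene protocol, per the labels' protocols; Seurat 4 and 4.4.0 and build mm10 are named by the submitters' processing notes, while for aligner and counter the entry is not given in the sources used here. Whether doublets were removed before deposit is not given either.

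Totals per library ran from 23118695 to 60409801 UMIs. Nuclei had at least 300 genes and under 10% mitochondrial UMIs. The members, gene lists and comparisons were chosen with earlier results of these data known. UMIs were summed per library and class. Lymphatic and blood endothelial sums were tested with edgeR 4.0.16 in R 4.3.3 (quasi-likelihood, TMM, library as block, Benjamini-Hochberg adjustment), in libraries with at least 10 nuclei of both classes. With 1 library a group, surgery and sham were compared without a test: ratios of CPM carry exact 95% binomial intervals and shares exact Clopper-Pearson intervals, which cover counting error only. Genes at 0 were set to 3 UMIs for a bound. Any list gene could be named, plus the 10 highest and 10 lowest fold changes that ran one way in all fitted libraries, and in a pair the 8 farthest from 1 each way. BeAT surgery over BAT surgery, the demand on other nuclei, the removal without the epididymal list, the split by Stab2 and leaving out the deepest nucleus, or that with most UMIs of a gene, were added after the data were seen. DESeq2 1.42.0, thinning to 1000 UMIs, Scrublet doublets (scanpy 1.11.5), at least 3 markers and other filters were alternatives. Scrublet marked 12 lymphatic nuclei in BeAT surgery, 4 in BAT surgery and 0 in BAT sham and BeAT sham. Its automatic cut marked 0.0096% of all nuclei in BAT sham and 0% in BeAT sham. In these the 6% of nuclei with the top scores were taken instead. The edgeR step was tested on simulated data. Promoters come from RefSeq. For 1 gene of the MHC and interferon list, which its counts and median include, single values are not reported here.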

Additional observations from a re-analysis of the deposited data

Results flagged for a closer look

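Cd74, the MHC class II chaperone, moved in opposite directions between surgery and sham in the 2 tissue labels. In BAT it had 30.9 CPM in surgery (5 UMIs) and 351 in sham (20 UMIs), a ratio of 0.0880. In BeAT it had 364 CPM in surgery (113 UMIs) and 0 in sham, so that surgery was at least 1.47-fold higher with 3 UMIs in place of 0. Each label has 1 library a group and the BeAT sham side 5 nuclei, and the difference between the labels was not tested. With nuclei carrying genes of other classes left out the BAT ratio was 0.469. The other nuclei of BeAT surgery held more Cd74 than its lymphatic nuclei. That library also carried B cell RNA, whose part in the Cd74 value was not tested.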

How the results depend on the processing

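No paired analysis was possible because the labels give no replicate numbers and each group is 1 library. The library itself was the block in lymphatic against blood nuclei: with no library block 95 genes were higher and 146 lower, against 150 and 230 with it. With no filter the counts were 272 and 559, and with all 4 libraries 395 were lower. Leaving out each library in turn gave 39 to 275 higher and 57 to 377 lower. Of the named genes 114 gene and setting pairs lost the call, 12 gained it and 842 did not change. Without each library in turn, the log2 fold change of Tie1 ran from -0.26 (without BAT surgery) to 0.33 (without BeAT surgery) and that of Kdr from -0.017 to 0.57, and Kdr was -0.12 with other classes left out. The share ratio of BAT surgery over BAT sham was 1.15 with other classes left out, 5.78 of endothelial nuclei and 6.89 of those with 3 of 4 markers. That of BeAT surgery over BeAT sham, 20.9 by the main rule, fell to 10.4 thinned to 1000 UMIs (31 nuclei against 5). It was 17.6 with doublets left out and 71.5 outside nuclei with lymphoid or epididymal genes. With 3 of 4 markers among endothelial nuclei it was 101.0, which rests on 36 nuclei against 1 (interval 17.01 to 4099.5). In BAT surgery over BAT sham the genes higher (284) and lower (202) came to 102 and 60 at 50 UMIs, 36 and 30 thinned, 128 and 91 at 3 of 4 markers, 67 and 28 with other classes left out, and 181 and 114 with the epididymal list not used for that. They were 102 higher with members at or above other nuclei, 180 higher with an endothelial gene demanded and 500 lower with no minimum. In BeAT surgery over BAT surgery (748 and 575) they were 431 and 252 at 50 UMIs, 137 and 124 thinned, 198 and 154 with other classes left out, 308 and 305 with the epididymal list not used for that, 453 and 352 with members at or above other nuclei, and 1094 lower with no minimum. Jun in BAT turned to 1.88 and 1.05 under the 2 removals, and Ccl21a between the surgery libraries to 1.001 with other classes left out. Removals and thinning leave fewer nuclei or UMIs; other causes were not tested. With 5 lymphatic nuclei and 12145 UMIs in BeAT sham, 3 UMIs are 247 CPM.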

Other observations

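Beyond the lists, 8 further genes were picked that lay on opposite sides of 1 in the pairs of surgery over sham. Their BAT ratios were 0.440 (Plxdc2) or lower, or 2.01 (Sorbs2) or higher, so genes with smaller differences are not among them. The number of genes screened is not given here, so the count of 8 has no base rate and does not show that such genes are unusual. Thsd7a, a thrombospondin-domain protein, had 531 CPM in BAT surgery and 1421 in BAT sham, but 702 in BeAT surgery and 82.3 in BeAT sham. Cd55, which limits complement on cell surfaces, had 136 in BAT surgery and 316 in BAT sham, but 1250.1 in BeAT surgery and 0 in BeAT sham. Sorbs2 ran the other way, at 599 in BAT surgery and 298 in BAT sham, and 80.5 in BeAT surgery and 329 in BeAT sham. These were picked after their values were seen, the BeAT sham values rest on at most 5 UMIs a gene, and the differences between the labels were not tested.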
